A study of Mus musculus with 8 samples.

Results

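The mitochondrial genome transcripts are all genes that the deposited count table places on chromosome MT. This rule took 37 of the 54532 genes in the table, namely 13 protein-coding genes, 2 rRNA genes and 22 tRNA genes. Counts were present for 33 of the 37. The other 4, all tRNA genes (mt-Tf, mt-Ts1, mt-Td and mt-Tk), had no count in any library. The filter on low counts kept 19 for testing: 12 mRNAs, both rRNAs and 5 tRNAs. The 18 that were not tested had between 0 and 71 counts over the 8 libraries together.

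The libraries came from lung endothelial cells (ECs) of wild-type C57BL/6J mice at postnatal day 14. Pups of the normoxia group (4 libraries) had been kept in room air at 21% O2 from day 0, and pups of the hyperoxia group (4 libraries) at 80% O2 over the same days. In both groups the lung suspension was depleted of CD45-positive leukocytes and the cells bound by CD31-coated beads were then taken, and nursing dams were exchanged between the groups each day. The sex of the pups and the number of pups behind each library were not given in the sources used here, so p-values measure the spread between these libraries, and the isolate holds whatever else the beads retained. The 12 endothelial markers checked were all detected, and their summed level was 18397 to 19431 CPM (counts scaled to a common library total by TMM) in normoxia and 18535 to 19517 CPM in hyperoxia. Markers of epithelial cells were lower in hyperoxia 3 than in its group and lay closer to normoxia, and calls on the level of a mitochondrial gene that change without it are given both ways.

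The mitochondrial genome encodes a small set of subunits of respiratory complexes I, III and IV and of ATP synthase (complex V), and the rRNAs and tRNAs needed to translate them. It is transcribed from both strands as long precursors, and excision of the tRNAs that lie between the other genes releases the individual mRNAs and rRNAs. Most of its mRNAs then receive a short poly(A) tail, whereas the rRNAs carry only a few added adenosines and the mRNA of mt-Nd6, which is encoded on the opposite strand from all other mRNAs, is known to lack a stable tail. All other subunits, the polymerase, the RNA processing factors and the mitoribosomal proteins are nuclear products that are imported.

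Long stretches of the mitochondrial genome also exist as pseudogenes in the nuclear genome, and a read from such a stretch can be assigned to either place. The first bases of mt-Nd3 and of the pseudogene Gm28438 on chromosome 1 are shown because they hold the single base by which the 345 matching bases differ (T3C, counted from the first base of mt-Nd3). A base of the same kind separates mt-Co1 from Gm29216 over the last 483 bases of the gene (A1066T, counted from the first base of mt-Co1). The differing base is in capitals. The sequences are those of the GENCODE M21 transcripts on build GRCm38, 5′ to 3′ in the sense of the mitochondrial gene.
mt-Nd3 (MT, 9459 to 9491, plus strand): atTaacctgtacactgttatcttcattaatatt
Gm28438 (chromosome 1, 24613087 to 24613119, minus strand): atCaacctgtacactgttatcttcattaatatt
mt-Co1 (MT, 6390 to 6423, plus strand): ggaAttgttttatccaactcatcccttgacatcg
Gm29216 (chromosome 1, 24616155 to 24616188, minus strand): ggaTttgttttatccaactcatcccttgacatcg

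The stretch where the 3′ end of mt-Rnr2 meets mt-Nd1 is shown because the genes on its sides moved in opposite directions. The tRNA gene mt-Tl1, 75 bases long, lies between them without a gap and is in capitals, with 30 bases of mt-Rnr2 before it and 30 bases of mt-Nd1 after it. All 3 are on the plus strand.
mt-Rnr2, mt-Tl1 and mt-Nd1 (MT, 2646 to 2780): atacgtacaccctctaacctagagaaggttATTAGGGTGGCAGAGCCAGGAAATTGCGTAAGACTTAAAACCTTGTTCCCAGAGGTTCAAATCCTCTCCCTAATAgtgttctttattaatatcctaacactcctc

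The first question was how much of each library the mitochondrial transcripts took. Their share of all gene counts was 0.955%, 0.864%, 1.05% and 0.971% in normoxia 1 to 4. It was 1.38%, 1.30%, 1.21% and 1.43% in hyperoxia 1 to 4. Every hyperoxia library lay above every normoxia library, with means of 0.960% ± 0.0755 and 1.33% ± 0.0966 (± SD, 4 libraries each), a ratio of 1.39. No p is given for this sum over genes. In a bulk sample, a change in the number of cells of a type and a change in RNA per cell cannot be told apart.

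The classes within that share differed in direction. The mRNAs took 0.894% ± 0.0679 of all normoxia counts and 1.30% ± 0.0909 of all hyperoxia counts (± SD, 4 libraries each). The rRNAs took 0.0647% ± 0.0140 in normoxia and 0.0329% ± 0.00560 in hyperoxia (± SD, 4 libraries each). Neither class overlapped between the groups, the mRNAs being higher in all 4 hyperoxia libraries and the rRNAs lower in all 4. Counts of mRNA per count of rRNA were 11.2, 15.5, 12.9 and 17.4 in normoxia and 36.5, 42.4, 44.5 and 36.3 in hyperoxia. This ratio was 2.81 times higher in hyperoxia, and its lowest hyperoxia library stood above its highest normoxia library. The tRNAs held 167 to 251 counts per library in normoxia and 234 to 327 in hyperoxia, which overlapped.

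**Figure D1:**
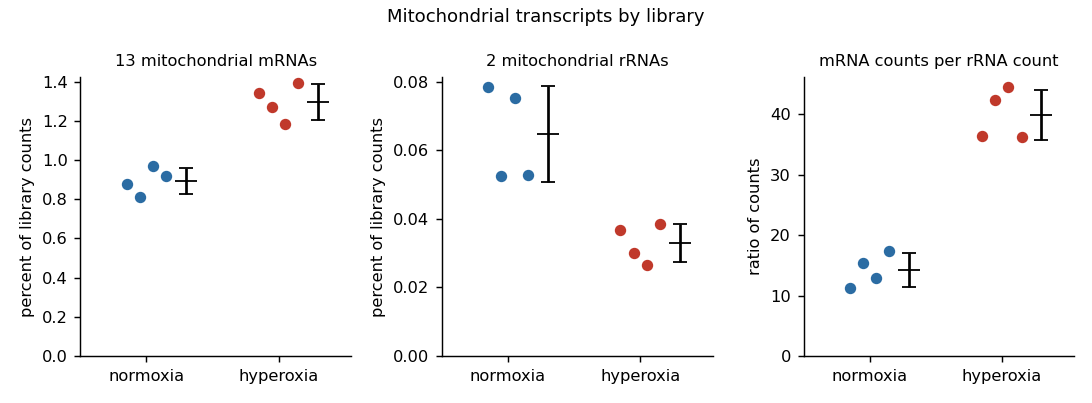
Share of library counts on the 13 mitochondrial mRNAs (left) and the 2 mitochondrial rRNAs (middle), in percent, and the ratio of mRNA to rRNA counts (right). Points are libraries and the bar beside each group is the mean with SD (n = 4). The mean mRNA share was 0.894% in normoxia against 1.30% in hyperoxia, and the mean rRNA share 0.0647% against 0.0329%.

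The genes were then tested one by one. Levels are CPM, and each log2 FC (log2 fold change) is hyperoxia over normoxia from edgeR's quasi-likelihood test, with Benjamini-Hochberg adjustment over the 15564 genes tested in the whole table. A gene was past the threshold at an adjusted p under 0.05. Of the 19 mitochondrial genes tested, 11 were higher and 2 were lower in hyperoxia, while 6 did not pass. Over all genes tested, 35.6% passed, 18.5% being higher and 17.1% lower. Among the 12 mRNAs tested, 8 were higher and none was lower (also none at an unadjusted p under 0.05 in edgeR or by DESeq2 or limma-voom), both rRNAs were lower, and of the 5 tRNAs tested 3 were higher. With a log2 FC of 1 or more in size required beside the adjusted p, 2 higher genes were left, mt-Nd3 and mt-Tn, and 1 lower, mt-Rnr2. Over all genes this left 6.98%, with 5.62% higher and 1.36% lower. The study set the same fold size beside a p-value for which it names no adjustment, so these are not counts at its own threshold. The groups did not overlap in 9 genes that were higher and 1 that was lower, compared with 17.8% and 17.6% of all genes tested. Without hyperoxia 3, 12 mitochondrial genes were higher and 2 were lower.

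The mitochondrial genome encodes 7 subunits of complex I, the NADH dehydrogenase that feeds electrons into the chain. The most abundant, mt-Nd1 (ENSMUSG00000064341, MT 2751 to 3707, plus strand), stood at 1171, 1043, 1261 and 1230 CPM in normoxia and at 1498, 1399, 1324 and 1589 CPM in hyperoxia. Its groups did not overlap, but hyperoxia 3 lay close to normoxia 3, and its log2 FC of 0.30 (SE 0.0728, adjusted p 0.00787) was the least of the 8 mRNAs past the threshold. A larger change was seen for mt-Nd5 (ENSMUSG00000064367, MT 11742 to 13565, plus strand), with 382, 362, 403 and 415 CPM in normoxia and 656, 672, 592 and 710 CPM in hyperoxia. All 4 hyperoxia libraries were well above normoxia, and the log2 FC was 0.75 (SE 0.0643, adjusted p 1.04e-05).

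On the minus strand, mt-Nd6 (ENSMUSG00000064368, MT 13552 to 14070) stood at 90.1, 84.3, 104 and 96.9 CPM in normoxia and at 151, 158, 147 and 171 CPM in hyperoxia. The groups were again apart, with a log2 FC of 0.74 (SE 0.0708, adjusted p 2.35e-05). The last 14 bases of mt-Nd5 overlap the end of mt-Nd6 on the other strand, and the use of strand in counting was not given in the sources used here. Without it, reads of plus-strand precursors anywhere across mt-Nd6 would count as mt-Nd6. From which strand the counts of mt-Nd6 came was not tested. Counts of mt-Nd6 per count of mt-Nd5 were 0.240 ± 0.0122 in normoxia and 0.238 ± 0.00804 in hyperoxia (± SD, 4 libraries each) and overlapped, a difference smaller than the spread between libraries.

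Also past the threshold were mt-Nd2 (ENSMUSG00000064345, MT 3914 to 4951), which went from 676 ± 74.3 to 1033 ± 65.4 CPM (log2 FC 0.61, SE 0.0798, adjusted p 1.95e-04), and mt-Nd4 (ENSMUSG00000064363, MT 10167 to 11544), which went from 755 ± 58.2 to 1022 ± 87.0 CPM (log2 FC 0.44, SE 0.0733, adjusted p 9.87e-04). In both, the 4 hyperoxia libraries lay above the 4 normoxia libraries. The gene of a small subunit, mt-Nd4l (ENSMUSG00000065947, MT 9877 to 10173) stood at 1.57 ± 0.160 and 1.73 ± 0.245 CPM, overlapped between groups and was not past the threshold (log2 FC 0.13, SE 0.204, adjusted p 0.653).

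The largest change of any mitochondrial gene tested was that of mt-Nd3 (ENSMUSG00000064360, MT 9459 to 9806, plus strand), which encodes a membrane subunit of complex I. It had 3.06, 2.16, 3.08 and 2.93 CPM in normoxia and 16.6, 15.3, 13.2 and 13.8 CPM in hyperoxia. No library of one group came near the other, the mean CPM was 5.24 times higher in hyperoxia, and the log2 FC was 2.39 (SE 0.140, adjusted p 9.6e-07). Yet mt-Nd3 had 1235 counts in all, and 97% of its stretches of 150 bases also occur in a nuclear transcript. How such reads were counted was not given, so the size of this change is uncertain. The nuclear pseudogene Gm28438, whose sequence is printed above beside that of mt-Nd3, had 0.779 CPM in normoxia and 0.679 CPM in hyperoxia (log2 FC -0.19, adjusted p 0.675). On the plus strand mt-Nd3 lies between mt-Co3 and mt-Nd4l, with the tRNA genes mt-Tg and mt-Tr beside it, and neither of those 2 mRNAs was past the threshold. The tRNA genes mt-Tg and mt-Tr had 17 and 13 counts in all 8 libraries together and were not tested.

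Complex III, which passes electrons to cytochrome c, has 1 subunit encoded in the mitochondrial genome, cytochrome b. Its gene mt-Cytb (ENSMUSG00000064370, MT 14145 to 15288) stood at 1694, 1539, 1897 and 1727 CPM in normoxia and at 2565, 2436, 2163 and 2608 CPM in hyperoxia. The groups did not overlap, and the log2 FC was 0.51 (SE 0.0751, adjusted p 4.18e-04).

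Complex IV, the cytochrome c oxidase, takes 3 subunits from the mitochondrial genome. Its catalytic subunit gene mt-Co1 (ENSMUSG00000064351, MT 5328 to 6872) had the most counts of any mitochondrial gene, at 3858, 3784, 4275 and 4288 CPM in normoxia and 6412, 6167, 5911 and 6668 CPM in hyperoxia. All hyperoxia libraries were above all normoxia libraries, with a log2 FC of 0.63 (SE 0.0594, adjusted p 1.98e-05). It took 42.5% ± 1.45 of mitochondrial counts in normoxia and 46.8% ± 0.835 in hyperoxia (± SD, 4 libraries each).

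The other two complex IV genes were scarce in the table. The level of mt-Co2 (ENSMUSG00000064354, MT 7013 to 7696) was 8.87 ± 0.754 CPM in normoxia and 11.6 ± 3.03 CPM in hyperoxia (log2 FC 0.39, SE 0.171, adjusted p 0.102). That of mt-Co3 (ENSMUSG00000064358, MT 8607 to 9390) was 4.19 ± 0.658 and 4.83 ± 0.515 CPM (log2 FC 0.20, SE 0.155, adjusted p 0.339). Both overlapped between the groups, and hyperoxia 3 at 8.59 CPM of mt-Co2 lay within the normoxia range. Without hyperoxia 3, the log2 FC of mt-Co2 was 0.51 and its adjusted p 0.0274.

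Complex V has a pair of subunit genes here that overlap by 43 bases, mt-Atp8 (ENSMUSG00000064356, MT 7766 to 7969) and mt-Atp6 (ENSMUSG00000064357, MT 7927 to 8607), the latter coding for the channel subunit. The stretch is shown with the shared 43 bases in capitals because a read that spans them falls on both genes.
mt-Atp8 and mt-Atp6 (MT, 7897 to 7999, plus strand): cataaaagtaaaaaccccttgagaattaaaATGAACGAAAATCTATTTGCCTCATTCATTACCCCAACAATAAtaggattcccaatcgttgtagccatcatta
Counts of mt-Atp8 were 2, 6, 0 and 0 in normoxia and 10, 0, 4 and 6 in hyperoxia, too few for a test. A count of 0 allows up to 3 counts, or 0.164 to 0.186 CPM in libraries of this size, counting error only. The level of mt-Atp6 was 5.50 ± 0.584 CPM in normoxia and 7.12 ± 1.64 CPM in hyperoxia (log2 FC 0.37, SE 0.169, adjusted p 0.115), with overlap. Without hyperoxia 3 its log2 FC was 0.47 and its adjusted p 0.0487.

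Both rRNAs of the mitochondrial ribosome were lower in hyperoxia. The 16S rRNA gene mt-Rnr2 (ENSMUSG00000064339, MT 1094 to 2675) stood at 621, 416, 581 and 408 CPM in normoxia and at 266, 216, 193 and 276 CPM in hyperoxia. Normoxia libraries were spread, yet the lowest of them was above the highest hyperoxia library, and the log2 FC was -1.09 (SE 0.156, adjusted p 3.54e-04). The 12S rRNA gene mt-Rnr1 (ENSMUSG00000064337, MT 70 to 1024) stood at 151, 107, 157 and 126 CPM in normoxia and at 104, 88.0, 76.9 and 109 CPM in hyperoxia. Here hyperoxia 4 was above normoxia 2, and the log2 FC was -0.52 (SE 0.133, adjusted p 0.0113). The rRNAs therefore did not keep their ratio. Counts of mt-Rnr2 per count of mt-Rnr1 were 4.10, 3.87, 3.71 and 3.25 in normoxia and 2.56, 2.46, 2.51 and 2.53 in hyperoxia, without overlap.

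**Figure D2:**
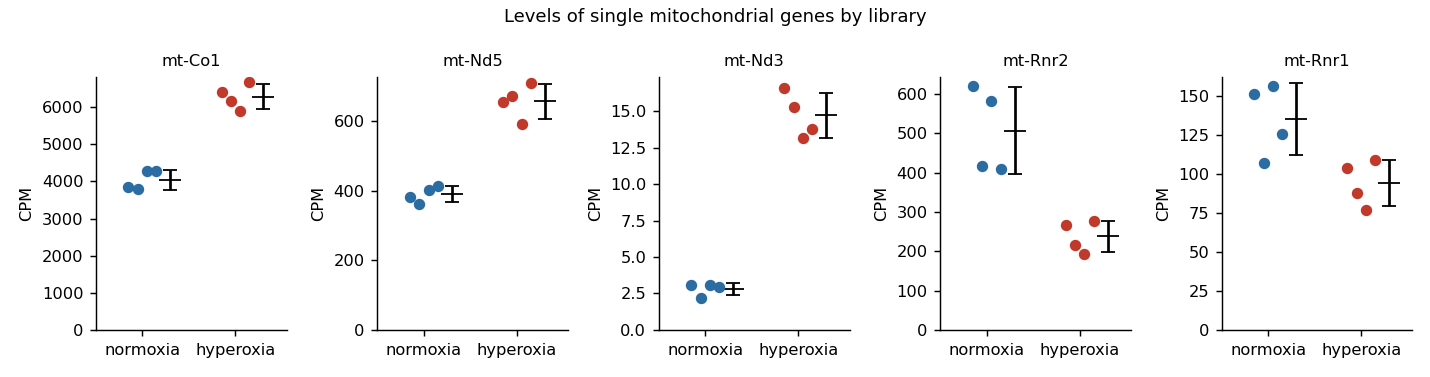
CPM of mt-Co1, mt-Nd5, mt-Nd3, mt-Rnr2 and mt-Rnr1 in each library (points), with mean and SD beside each group (n = 4), every axis starting at 0. The first 3 genes were higher in all hyperoxia libraries and mt-Rnr2 was lower in all of them, while mt-Rnr1 overlapped, with 109 CPM in hyperoxia 4 and 107 CPM in normoxia 2.

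The labels name an mRNA sequencing kit but not how mRNA was selected, so other RNAs without a poly(A) tail or kept in the nucleus were looked at beside the rRNAs. Of 74 such genes in the table, mostly histones, 14 were tested, of which 2 were higher and 4 were lower (14.3% and 28.6%, against 18.5% and 17.1% over all genes tested). Their median log2 FC was -0.21, against -0.004 over all genes. Rn7sk, the 7SK RNA that restrains transcription elongation, fell from 14.8 ± 6.23 to 4.09 ± 1.81 CPM (log2 FC -1.85, SE 0.369, adjusted p 0.00279). Neat1, the scaffold of nuclear paraspeckles, rose from 29.2 ± 5.09 to 59.3 ± 6.41 CPM (log2 FC 1.02, SE 0.122, adjusted p 1.07e-04). Among the histones, Hist1h1c rose (log2 FC 0.35, SE 0.122, adjusted p 0.0429). Hist1h3g, one of the 4 counted as lower, had a level of 0.964 ± 0.289 CPM in normoxia, against 0.128 ± 0.149 CPM in hyperoxia. It reached the low-count filter (10 counts in a library of median size, 0.566 CPM) in all 4 normoxia libraries and 0 hyperoxia libraries, so it entered the test only through the group where it was high. Malat1, the most abundant of the 14 and a nuclear RNA, overlapped at 1584 ± 448 and 1578 ± 124 CPM. The summed level of the list, most of which was Malat1, was 1329 to 2324 CPM in normoxia and 1615 to 1855 CPM in hyperoxia. The part of RNA selection in the fall of the rRNAs was not tested.

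The tRNA genes, each shorter than a sequenced end, were thinly covered. The 3 with most counts were mt-Tp (proline, 980 counts in all), mt-Tc (cysteine, 223 counts) and mt-Tn (asparagine, 205 counts), which all lie on the minus strand. The limit on strand given for mt-Nd6 holds for their counts too. The level of mt-Tp (MT 15356 to 15422) was 6.94 ± 1.04 CPM in normoxia and 6.98 ± 0.716 CPM in hyperoxia, with an adjusted p of 0.966. That of mt-Tl1 (leucine, MT 2676 to 2750), the tRNA between mt-Rnr2 and mt-Nd1, was 0.857, 0.797, 0.951 and 1.10 CPM in normoxia and 1.66, 1.59, 1.32 and 1.89 CPM in hyperoxia. These groups did not overlap and the log2 FC was 0.79 (SE 0.227, adjusted p 0.0197), the direction of mt-Nd1 on its 3′ side and not of mt-Rnr2 on its 5′ side. The call was lost without hyperoxia 4 (log2 FC 0.71, adjusted p 0.0654) and without the low-count filter (0.80, adjusted p 0.0591). Whether reads counted on mt-Tl1 or another tRNA gene came from the tRNA or from a precursor was not tested.

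In mt-Tn (MT 5089 to 5159) the level went from 0.949 ± 0.399 to 1.95 ± 0.529 CPM (log2 FC 1.03, SE 0.325, adjusted p 0.0303) and in mt-Tc (MT 5192 to 5257) from 1.08 ± 0.427 to 2.08 ± 0.602 CPM (log2 FC 0.94, SE 0.314, adjusted p 0.0390). Both groups overlapped. Each call was lost in 6 of the 8 fits that left out a single library. For mt-Tc these include the fit without hyperoxia 3 (log2 FC 0.93, adjusted p 0.0664). The glutamate tRNA gene mt-Te (MT 14071 to 14139), at 0.523 ± 0.319 and 0.949 ± 0.148 CPM, passed the filter through its hyperoxia libraries and was not past the threshold (adjusted p 0.126).

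**Figure D3:**
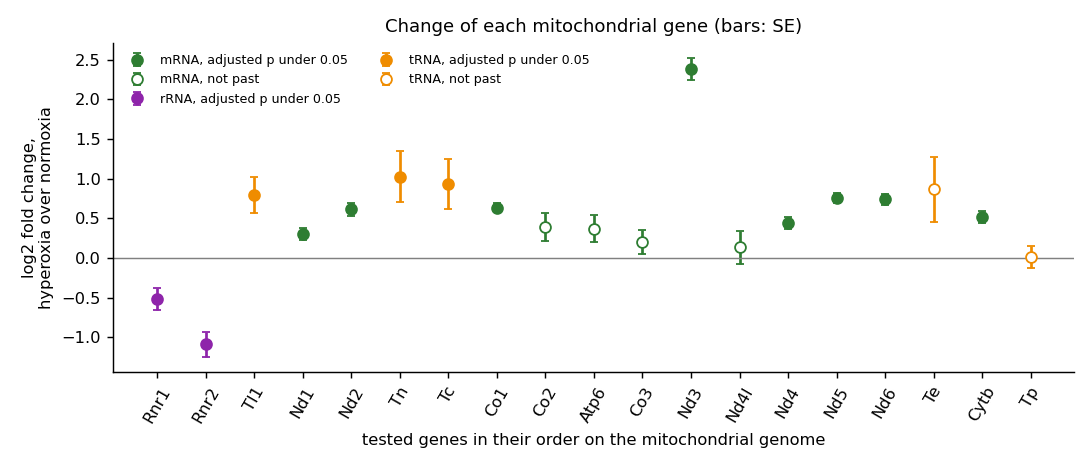
Log2 FC of the 19 tested mitochondrial genes (vertical axis, bars are SE) in their order along the mitochondrial genome, coloured by class, with open points for an adjusted p of at least 0.05. The 2 rRNAs lie below 0 at -0.52 and -1.09, mt-Nd3 stands highest at 2.39, and the 4 open mRNA points (mt-Co2, mt-Atp6, mt-Co3 and mt-Nd4l) lie between mt-Co1 and mt-Nd4.

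Counts of different genes can be set side by side as FPKM, which divides by gene length. Between mRNAs and rRNAs, FPKM also depends on how RNA was selected, which is not known here. In normoxia mt-Co1 stood at 2601 FPKM, mt-Cytb at 1486, mt-Nd1 at 1220, mt-Nd2 at 646, mt-Nd4 at 543, mt-Rnr2 at 318, mt-Nd5 at 212, mt-Nd6 at 179 and mt-Rnr1 at 141 FPKM. In hyperoxia mt-Rnr2 stood at 149 FPKM, below mt-Nd5 at 358 and mt-Nd6 at 300.1 FPKM. The FPKM of mt-Nd1 was 3.84 times that of mt-Rnr2 in normoxia and 10.1 times in hyperoxia. These are ratios in the libraries and need not be those in the cells.

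The 5 remaining mRNAs that were tested stood far lower, between 5.26 and 12.9 FPKM in normoxia, so that mt-Co1 was at 202 times the level of its neighbour mt-Co2. These 5 (mt-Co2, mt-Atp6, mt-Co3, mt-Nd3 and mt-Nd4l) are also the ones whose sequence is repeated nearly whole in nuclear transcripts. Of all stretches of 150 bases in each gene, which is the length of 1 sequenced end, 97.0% to 99.8% were found letter for letter in a nuclear transcript of GENCODE M21. The share was 59.2% for mt-Nd4 and 23.6% for mt-Co1, and 0% for mt-Nd1, mt-Nd2, mt-Nd5, mt-Nd6, mt-Cytb, mt-Atp8 and both rRNAs. Only transcripts were searched, so 0% does not mean that the nuclear genome holds no copy. The mRNA neighbours of mt-Atp8 have copies on chromosome 1 (mt-Co2 at 24614885 to 24615565, mt-Atp6 at 24613974 to 24614651). The bases between these copies, where a copy of mt-Atp8 would lie, were not searched. The 5 tested mRNAs with a share of 0% stood between 179 and 1486 FPKM in normoxia, and all 5 were higher in hyperoxia. The other mRNA at 0%, mt-Atp8, was not tested and stood lowest of the 13 mRNAs, at 0.562 FPKM in normoxia. Of the 5 with over 90% shared, 1 was higher (mt-Nd3) and 4 were not past the threshold.

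**Figure D4:**
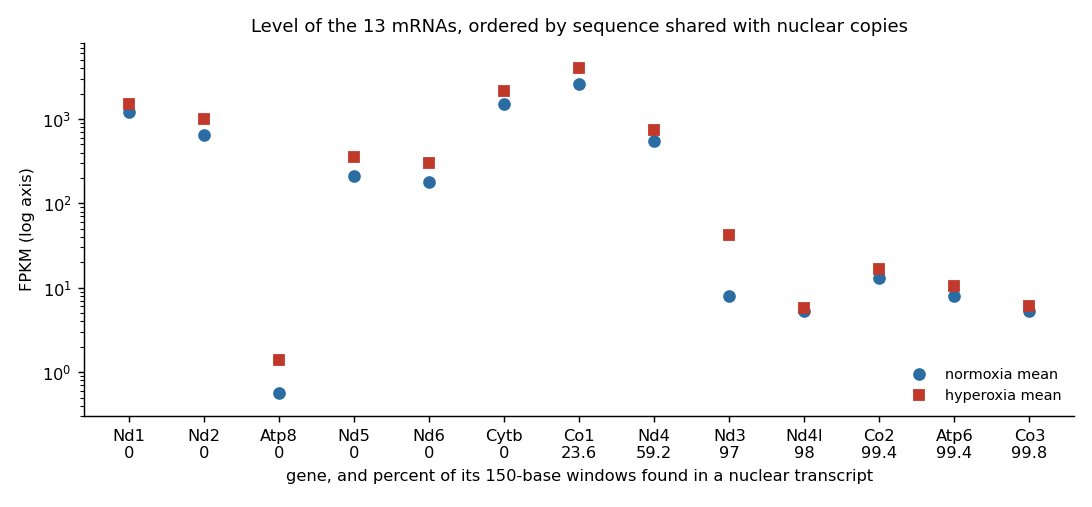
Mean FPKM (log axis) of the 13 mitochondrial mRNAs in normoxia (circles) and hyperoxia (squares), ordered by the percent of 150-base stretches that occur letter for letter in a nuclear transcript, printed under each gene. The 5 genes at 97.0% or more lie at 5.26 to 12.9 FPKM in normoxia, and mt-Nd3 is the one of them whose means are well apart. Of the genes at 0%, mt-Atp8 lies lowest, at 0.562 FPKM in normoxia. Only transcripts were searched, so a nuclear copy of mt-Atp8 may have been missed.

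The matching nuclear transcripts are unprocessed pseudogenes that lie together on the minus strand of chromosome 1. Gm28661 equals 681 bases of mt-Co2, Gm10925 equals 678 bases of mt-Atp6, Gm28437 equals 783 bases of mt-Co3, Gm10222 equals 294 bases of mt-Nd4l and Gm28439 equals the first 876 bases of mt-Nd4. Among them, Gm10925 rose from 7.90 to 13.6 CPM (log2 FC 0.78, adjusted p 0.0393) with overlap, and Gm28439 rose from 3.20 to 4.64 CPM (log2 FC 0.54, adjusted p 0.0188) without. The others did not pass. Gm28661 stood at 6.64 and 10.8 CPM (adjusted p 0.108), Gm29216 at 3.69 and 5.11 CPM (0.0561), Gm28437 at 3.99 and 4.18 CPM (0.825), and Gm10222 at 0.989 and 1.19 CPM (0.471), each in normoxia and hyperoxia. Gm13340 on chromosome 2, which matches mt-Co1 at 97.6% identity, rose from 0.618 to 1.35 CPM (adjusted p 0.0207).

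How reads with several matches were counted was not given in the sources used here. The values of mt-Co2, mt-Atp6, mt-Co3, mt-Nd3 and mt-Nd4l, and in part of mt-Nd4 and mt-Co1, are therefore uncertain as levels and as fold changes. Adding the counts of the nuclear copies to their mitochondrial genes changed 1 call among the 19, that of mt-Atp6, which then was higher. The copies held 461 to 538 counts per library in normoxia and 545 to 892 in hyperoxia, and the mitochondrial share with them added was 1.39 times higher in hyperoxia.

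A further comparison asked which genes changed their share of the mitochondrial mRNA counts, by fitting the same model with the summed mRNA counts of each library as its size. Of the 19 genes, 3 were higher and 4 were lower on this scale and 12 did not pass. Over all genes tested 74.6% passed, 5.34% higher and 69.2% lower, since every nuclear gene is set against mRNAs that rose. Highest was mt-Nd3, which took 0.0315% ± 0.00362 of mitochondrial mRNA counts in normoxia and 0.112% ± 0.0109 in hyperoxia (± SD, 4 libraries each; log2 FC 1.83, SE 0.144, adjusted p 1.39e-06). The shares of mt-Nd5 (4.40% ± 0.117 and 5.02% ± 0.153, adjusted p 0.0292) and mt-Nd6 (1.06% ± 0.0246 and 1.20% ± 0.0521, adjusted p 0.0361) rose by 0.19 and 0.18 on the log2 scale. Each of these small rises was lost in 6 of the 8 fits that left out a single library.

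Lower on this scale were mt-Rnr2 (log2 FC -1.66, SE 0.139, adjusted p 1.96e-06), mt-Rnr1 (-1.08, SE 0.108, adjusted p 5.43e-06), mt-Tp (-0.54, SE 0.137, adjusted p 0.00289) and mt-Nd1 (-0.26, SE 0.0708, adjusted p 0.00524). The share of mt-Nd1 was 13.2% ± 0.279 in normoxia and 11.1% ± 0.227 in hyperoxia (± SD, 4 libraries each), without overlap. For the other abundant mRNAs, the share was 45.6% ± 1.01 and 48.1% ± 0.758 for mt-Co1 (adjusted p 0.341), 19.3% ± 0.584 and 18.6% ± 0.449 for mt-Cytb (adjusted p 0.537), 7.60% ± 0.362 and 7.89% ± 0.104 for mt-Nd2 (adjusted p 0.513), and 8.50% ± 0.101 and 7.80% ± 0.223 for mt-Nd4 (adjusted p 0.129). Though not past the threshold, mt-Co1 did not overlap (44.7% to 46.8% in normoxia, 47.6% to 49.2% in hyperoxia). Nor did mt-Nd4 (8.38% to 8.63% and 7.47% to 7.95%), while mt-Cytb and mt-Nd2 overlapped.

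Nuclear genes of the mitochondrion were described from the level fit in lists. Over all lists together 42 were higher and 18 lower of 236 tested (17.8% and 7.63%, against 18.5% and 17.1% over all genes), and 37 and 15 without hyperoxia 3. The 19 genes for transcription and maintenance of mitochondrial DNA had 0 higher and 7 lower members in edgeR. The lower ones were 36.8% of the list, against 17.1% of all genes, and the median log2 FC was -0.18, against -0.004. No member was higher at an unadjusted p under 0.05 or by DESeq2 or limma-voom either, which held for the next list too. Polg2, the accessory subunit of the mitochondrial DNA polymerase, fell from 29.8 ± 5.06 to 18.8 ± 2.02 CPM (log2 FC -0.67, SE 0.120, adjusted p 0.00153). Twnk, the replicative helicase, fell from 8.90 ± 1.06 to 5.67 ± 0.495 CPM (log2 FC -0.65, SE 0.124, adjusted p 0.00216). Neither overlapped between groups. Smaller falls were those of Polg, the catalytic subunit of that polymerase (-0.14, adjusted p 0.0456), and Mterf3, a regulator of mitochondrial transcription (-0.18, adjusted p 0.0415). Polrmt, the mitochondrial RNA polymerase (log2 FC -0.10, adjusted p 0.320), and Tfam, which packages the DNA and opens its promoters (-0.15, adjusted p 0.138), were not past the threshold, and the protease gene Lonp1 stood at 65.6 and 65.5 CPM.

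Of 10 tested regulators of mitochondrial biogenesis, 0 were higher and 4 were lower in edgeR (40% lower, against 17.1% of all genes, median log2 FC -0.15). Ppargc1a, the coactivator PGC-1alpha, had 3.43, 3.81, 2.74 and 3.76 CPM in normoxia and 1.60, 1.70, 1.89 and 1.61 CPM in hyperoxia. All 4 hyperoxia libraries were lower, with a log2 FC of -1.01 (SE 0.178, adjusted p 0.00132). The deacetylase gene Sirt1 fell from 71.7 ± 3.05 to 42.7 ± 3.26 CPM (log2 FC -0.75, SE 0.0626, adjusted p 9.15e-06). Yy1 and Gabpa, transcription factors that bind promoters of nuclear mitochondrial genes, had log2 FC values of -0.34 and -0.35 (adjusted p 0.00125 and 2.87e-04), and the PGC-1-related coactivator gene Pprc1 was not past the threshold (0.07, adjusted p 0.582).

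In the list of mitochondrial RNA processing and turnover, 3 were higher and 2 lower of 26 tested (11.5% and 7.69%, both under the shares over all genes, median 0.03). Pus1, a pseudouridine synthase of tRNAs, rose by 0.56 on the log2 scale (SE 0.103, adjusted p 0.00179) and Rexo2, an oligoribonuclease, by 0.35 (SE 0.0772, adjusted p 0.00502). The FASTK family genes Fastkd1 (-0.42, SE 0.108, adjusted p 0.0119) and Fastkd3 (-0.32, SE 0.0971, adjusted p 0.0237) fell. Lrpprc, which stabilises mitochondrial mRNAs, stood at 39.1 ± 1.48 and 40.02 ± 1.58 CPM (adjusted p 0.647), Grsf1 and Fastk, RNA-binding proteins of mitochondrial granules, had adjusted p-values of 0.531 and 0.202, and Slirp, the partner of Lrpprc, was below the filter at 0.325 and 0.397 CPM.

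Among the 77 mitoribosomal protein genes tested, 14 were higher and 3 were lower (median log2 FC 0.06). The share that was higher, 18.2%, was near the 18.5% over all genes, and the share that was lower was 3.9%, against 17.1%. The largest rises were those of Mrps18b (0.70, SE 0.161, adjusted p 0.00642) and Mrpl46 (0.49, SE 0.124, adjusted p 0.0111), and the largest falls those of Mrpl24 (-0.52, SE 0.0642, adjusted p 1.38e-04) and Mrpl23 (-0.35, SE 0.0957, adjusted p 0.0154). Of the most abundant, Mrpl37 and Mrpl3 rose by 0.19 and 0.32 on the log2 scale (adjusted p 0.0175 and 0.00426), and Mrpl4 was at 0.11 (adjusted p 0.194).

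The nuclear subunits of the complexes that also hold the mitochondrial products were mostly not past the threshold, with 20 higher and 1 lower of 84 tested. The higher share of 23.8% was above the 18.5% over all genes and the lower share of 1.19% was under the 17.1%, and 70 of the 84 had a log2 FC above 0. The complex I list was taken by gene symbol. It also holds the Ndufaf assembly factors and genes that need not be complex I subunits, such as Ndufa4 and Ndufa4l2. Of its 46 genes, 10 were higher and 1 was lower (median 0.12). Among those past the threshold Ndufa9 (0.35, adjusted p 0.00351) and Ndufa1 (0.26, adjusted p 0.0353) had the largest rises and Ndufb2 was the fall (-0.31, adjusted p 0.0360). The highest log2 FC of the list was that of Ndufa4l2 (0.88, SE 0.375, adjusted p 0.0916), named after its value was seen, which did not pass. The abundant genes of the list, Ndufa4 (0.14, adjusted p 0.226) and Ndufv1 (-0.11, adjusted p 0.142), did not pass. Of 9 complex III genes 2 were higher (median 0.13), namely Uqcrq (0.32, adjusted p 0.00562) and Uqcrfs1, the Rieske protein (0.24, adjusted p 0.0227), while Uqcrc1 (0.09), Uqcrc2 (0.11) and Uqcrh (-0.10) had adjusted p-values of 0.250, 0.169 and 0.250.

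Of 13 complex IV genes 4 were higher (30.8%, against 18.5% of all genes tested, median 0.23). One of the 4 is Cox6b2, an isoform best known from testis, with a level of 0.605 ± 0.130 CPM in normoxia, against 3.70 ± 0.680 CPM in hyperoxia (± SD, 4 libraries each). It reached the low-count filter in 2 normoxia and 4 hyperoxia libraries, so it entered the test through the group where it was high. Cox6a1 rose by 0.30 on the log2 scale (adjusted p 0.00653), whereas Cox4i1 (0.03, adjusted p 0.677) and Cox8a (0.13, adjusted p 0.120) were not past the threshold. Of 16 complex V genes 4 were higher (25%, against the same 18.5%, median 0.16). Among them were Atp5g1 (0.29, adjusted p 0.0389) and Atp5g3 (0.24, adjusted p 0.0232), which encode the rotor ring. The abundant Atp5b, Atp5a1 and Atp5d had log2 FC values of 0.10, 0.07 and 0.11 (adjusted p 0.122, 0.330 and 0.162).

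Of the 20 genes for mitochondrial carriers, pores, import and matrix proteins, 5 were higher and 1 was lower (25% and 5%, together 30% against 35.6% over all genes, median 0.09). The import channel gene Timm23 rose by 0.44 (adjusted p 0.0147), the ADP/ATP carrier gene Slc25a4 by 0.28 (adjusted p 0.00458) and the outer membrane pore gene Vdac2 by 0.15 (adjusted p 0.0395), all on the log2 scale. The chaperonin gene Hspd1 fell by 0.19 (adjusted p 0.0312). The log2 FC of Slc25a5, another ADP/ATP carrier gene, was 0.05 (adjusted p 0.493), which did not pass. The summed level of this list was 1595 to 1820 CPM in normoxia and 1810 to 1835 CPM in hyperoxia, which overlapped.

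**Figure D5:**
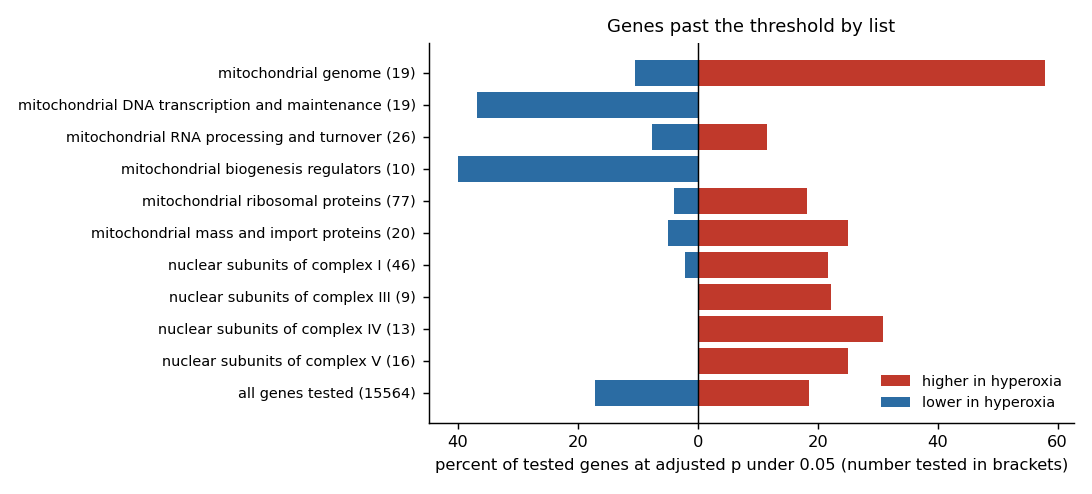
Percent of the tested genes of each list that were higher (right) or lower (left) in hyperoxia at an adjusted p under 0.05, with the number tested in brackets and all 15564 genes in the bottom bar (18.5% and 17.1%). The 19 mitochondrial genes had 11 higher and 2 lower, and the lists for mitochondrial DNA maintenance and biogenesis had none higher.

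Markers of cells other than ECs differed between the same libraries. All 9 alveolar type 2, all 8 alveolar type 1 and all 7 general epithelial markers were higher in hyperoxia, with summed levels of 247 to 344 and 777 to 2314 CPM, 78.2 to 97.5 and 165 to 468 CPM, and 7.02 to 16.5 and 33.1 to 110.03 CPM. Of the fibroblast markers 4 of 6 (66.7%, 114 to 222 and 172 to 407 CPM) were higher. Of the mural markers 6 of 7 were higher (85.7%, 44.5 to 79.5 and 98.7 to 173 CPM). The endothelial list had 4 higher and 3 lower of 12 (33.3% and 25%, median log2 FC -0.01). The leukocyte list had 1 and 1 of 10 (10% and 10%, 169 to 364 and 223 to 561 CPM). In the erythroid and platelet list 4 of 7 were lower (57.1%, 122 to 218 and 94.9 to 138 CPM). Over all genes tested, 18.5% were higher and 17.1% lower. Of the general epithelial markers Krt19, Epcam and Krt8, and of the fibroblast markers Dcn, reached the low-count filter in fewer than 4 normoxia libraries but in all 4 hyperoxia libraries. So did Msln, the 1 mesothelial marker tested, with a mean of 0.266 CPM in normoxia against 1.47 CPM in hyperoxia. Neither of the 2 airway markers tested passed in edgeR or DESeq2 (1 was higher in limma-voom and at an unadjusted p under 0.05).

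The mean log2 CPM of the epithelial markers was 1.96 to 2.65 in normoxia, 3.81 in hyperoxia 3 and 5.20 to 5.31 in the other 3 hyperoxia libraries. Hyperoxia 3 had the lowest mitochondrial share of the hyperoxia libraries, 1.21%. Within normoxia, the epithelial mean was highest in normoxia 1 (2.65, share 0.955%) and lowest in normoxia 4 (1.96, share 0.971%). With this mean as a covariate, 2 of the 19 mitochondrial genes were past the threshold, mt-Nd3 (log2 FC 1.98, SE 0.340, adjusted p 0.0196) and mt-Rnr2 (-2.01, SE 0.353, adjusted p 0.0217), in a fit in which 1.46% of all genes passed. In it mt-Co1 stood at 0.52 (SE 0.170, adjusted p 0.208) and mt-Nd1 at 0.05 (SE 0.202, adjusted p 0.941). The SE was larger in this fit, and some calls were lost at a sizeable fold. The log2 FC was -1.28 for mt-Rnr1 (SE 0.316, adjusted p 0.0873), farther from 0 than without the covariate, and 0.59 for mt-Nd6 (SE 0.203, adjusted p 0.228) and 0.50 for mt-Nd5 (SE 0.173, adjusted p 0.235), nearer to 0. These losses do not show that the differences were gone. With the mean of the fibroblast and mural markers instead, 5 passed (mt-Co1, mt-Nd3, mt-Nd5, mt-Nd6 and mt-Rnr2), against 7.58% of all genes. Of the 13 mitochondrial genes past the threshold, only mt-Nd3 and mt-Rnr2 kept their calls in all 23 alternative fits of the level. Apart from the fit that adds nuclear copies, these fits rest on the same assignment of reads, so they do not test it for mt-Nd3. Beyond these fits, the part of other cells in the mitochondrial differences was not tested.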

How the data were processed

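The authors deposited raw counts per gene and FPKM of the same genes. The submitters' processing notes name HISAT2 2.0.5, featureCounts 1.5.0-p3 and build mm10. Settings for strand and for reads with several matches were not given in the sources used here, and the labels and the study's methods name different RNA extraction kits. FPKM deposited by the authors equalled count over length and library total times a constant of 0.974 to 1.015 per library (within 4.0e-08 for counts above 20), so it was used only to compare genes and as an alternative.

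Groups came from the sample titles. Library totals ran from 16098086 to 18300730 counts, and libraries of a group differed by more than counting noise. Counts were tested with edgeR 4.0.16 in R 4.3.3 (quasi-likelihood test, TMM, filterByExpr defaults, group as the only term), and adjusted over 15564 genes. CPM use TMM sizes. A second fit used summed mitochondrial mRNA counts as library size. On simulated counts of 15362 genes for this comparison the test recovered 36 of 68 genes changed by 0.5, 52 of 64 changed by 1 and 62 of 62 changed by 2 on the log2 scale. It also called 13 genes that were simulated without a change.

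Nuclear copies were found by matching mitochondrial transcripts to all GENCODE M21 transcripts (BLAST 2.17.0, at least 95% identity over 100 bases), since only transcripts were used and not the genome. The members and all lists were chosen with earlier results of these data known. Named were all mRNAs and rRNAs, the tested tRNAs, copies with at least 100 counts and, per nuclear list, the 3 most abundant genes and up to 2 rises and 2 falls past the threshold, with Polrmt, Tfam, Lrpprc, Slirp and Ppargc1a, except for some nuclear genes that are not reported here. Of the cell marker lists counts, sums and the epithelial mean used as a covariate are given. Single markers are named only where they reached the low-count filter in unequal numbers of libraries. Genes within 0.01 of no change are given as levels. Alternatives were other scalings and filters, DESeq2 1.42.0, limma-voom and limma 3.58.1 on log2(FPKM + 1) and log2(FPKM + 0.1), marker covariates, other thresholds and offsets, a replicate block, leaving out each library and, chosen after seeing the data, adding nuclear copies to their genes.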

Additional observations from a re-analysis of the deposited data

Results flagged for a closer look

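A library was taken up here when it stood far from the other 3 of its group, by a limit crossed in about 1 of 20 such groups by chance alone. This happened in 3 of the 76 groups tested, where 3.8 were to be expected. In normoxia 4, mt-Tc had 1.71 CPM against 0.797 to 0.951 CPM in the other normoxia libraries. In normoxia 2, mt-Nd3 had 2.16 CPM against 2.93 to 3.08 CPM in the others, which is still far below the 13.2 CPM of the lowest hyperoxia library. In normoxia 3 the ratio of mt-Nd6 to mt-Nd5 counts was 0.259 against 0.233 to 0.236 in the others.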

How the results depend on the processing

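The limits are those of 4 against 4 libraries, of counting rules that are not known for genes with nuclear copies, and of tRNA genes with few counts. The mitochondrial share was higher in hyperoxia under every alternative tried, by 0.338 to 0.412 percentage points when single libraries were left out. The 11 genes higher and 2 lower became 1 and 1 with the epithelial score as a covariate, 4 and 1 with the fibroblast and mural score, 6 and 1 on unfiltered log2(FPKM + 1), 2 and 1 with a log2 fold change of at least 1, and 8 and 1 at an adjusted p under 0.01. They were 8 to 12 and 2 with single libraries left out. For the nuclear lists together, 42 higher and 18 lower became 0 and 0 with the epithelial score (5 and 5 at an unadjusted p under 0.05 in edgeR), 1 and 1 with the fibroblast and mural score, and 25 and 9 on unfiltered log2(FPKM + 1). They were 25 to 58 and 12 to 21 with single libraries left out (25 without normoxia 2 or hyperoxia 4, 27 without normoxia 4 or hyperoxia 1). Relative to mitochondrial mRNA, the 3 higher became 1 without a filter and 1 or 2 with single libraries left out, and the 4 lower 4 or 5. The causes were not tested.

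Replicate numbers do not pair the libraries by any source, and deviations of same-numbered libraries correlated at 0.119, 0.036, -0.125 and -0.140. With the replicate number as a block, 10 mitochondrial genes were higher and 2 lower, 32 and 14 nuclear list genes, and 1 and 4 relative to mitochondrial mRNA.

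Signs turned as follows. With the epithelial score the log2 fold change was -0.36 for mt-Co2, -0.24 for mt-Atp6, -0.61 for mt-Nd4l, -0.10 for mt-Tp, -0.084 for Atp5a1, -0.025 for Atp5b, -0.030 for Atp5d, -0.14 for Atp5g3, -0.14 for Cox4i1, -0.15 for Cox8a, -0.12 for Mrps18b, -0.14 for Ndufa4, -0.033 for Uqcrc1 and 0.070 for Polg. With the fibroblast and mural score it was -0.13 for mt-Nd4l and -0.056 for Cox4i1. For mt-Tp it was -0.010 under upper quartile scaling and -0.014 on library totals, and -0.074 to 0.087 without single libraries (below 0 without normoxia 1 or 2 or hyperoxia 2 or 4). For Cox4i1 it was -0.0013 (without normoxia 2) to 0.046 without single libraries. Relative to mitochondrial mRNA it was -0.018 (without normoxia 3) to 0.72 for mt-Te without single libraries, and 0.015 for mt-Cytb with all mitochondrial counts as the offset.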
